A study of Mus musculus with 12 samples.

Results

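The genes described here encode the nuclear part of oxidative phosphorylation, and they were chosen by symbol: rows that begin with Nduf, Uqcr, Cox4, Cox5, Cox6, Cox7, Cox8 or Atp5, together with Sdha, Sdhb, Sdhc and Sdhd. The rule found 92 of the 23174 rows, the same in both tables. It uses symbols and no measured values, though it was chosen with earlier results of these data known. Rows averaging 1 FPKM or more within a table were kept, which left 85 of these members among 10245 kept rows ex vivo and 83 among 10741 kept rows in the tumours (all but Cox4i2 and Cox6a2 of the 85). FPKM scales fragment counts by transcript length and by library size, so levels can be set side by side between genes within a table.

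Oxidative phosphorylation takes place in the inner mitochondrial membrane. Complexes I (NADH dehydrogenase), II (succinate dehydrogenase), III (cytochrome bc1 complex) and IV (cytochrome c oxidase) pass electrons to oxygen, complexes I, III and IV pump protons, and complex V (ATP synthase) uses the proton gradient to make ATP. Complex II is built from nuclear genes alone, while the other complexes also hold subunits encoded by mitochondrial DNA, which were not analysed here. Leukaemic T cells, like other dividing lymphocytes, use the chain for ATP and to regenerate the oxidised cofactors that nucleotide and amino acid synthesis needs.

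All 12 samples were T-ALL (T cell acute lymphoblastic leukaemia) of C57BL/6 mice that carried Notch1-deltaE, an activated form of Notch1. In the ex vivo experiment, 3 samples received AMD3100, a small molecule antagonist of the chemokine receptor CXCR4, and 3 received vehicle, and each AMD3100 sample shares its number with a vehicle sample. The other experiment compared 3 primary tumours of Cxcr4+/+ genotype (numbers 1, 2 and 4) with 3 of Cxcr4-/- genotype (numbers 5, 7 and 8). Per the labels' protocols, cells from spleen were kept with IL-7 on OP9, a bone marrow stromal line whose division was stopped with mitomycin C. That text stands on the tumours as well, and it does not settle whether they were cultured. The animals' age and the AMD3100 dose and exposure time are not given here. The labels leave unsaid whether replicates of a group stem from different animals or cultures, so the p-values speak for the spread among these libraries, and that spread may be technical.

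Cxcr4 itself was listed at 241, 155 and 206 FPKM in the Cxcr4+/+ tumours and at 23.2, 78.9 and 21.9 FPKM in the Cxcr4-/- tumours, so knockout tumour 7 held the most of it. Ex vivo, all 12 T cell markers were kept and summed to 5404 to 5703 FPKM with vehicle and 5058 to 5263 FPKM with AMD3100, while 8 of 11 erythroid, 7 of 11 macrophage and 7 of 10 neutrophil markers were listed at 0 in every sample. Stromal markers summed to 10.9 to 184 FPKM with vehicle and 21.4 to 199.5 FPKM with AMD3100. The haemoglobin share of summed FPKM in the tumours was 1.29% to 23.0% for Cxcr4+/+ and 2.76% to 20.4% for Cxcr4-/-, and T cell markers summed to 1563 to 5736 and 2121 to 4581 FPKM. B cell markers summed to 12.5 to 37.7 FPKM in Cxcr4+/+ and 42.05 to 56.3 FPKM in Cxcr4-/- tumours with no overlap, and neutrophil markers to 3314 FPKM in Cxcr4+/+ tumour 2 against 5.68 to 351 FPKM in the others, and their part in the members' levels was not tested. The X-linked RNA Xist was listed at 96.4 to 147 FPKM in the Cxcr4+/+ tumours and 0.829 to 2.80 FPKM in the Cxcr4-/- tumours, a difference that cannot be told apart from genotype in this design. In bulk RNA, fewer leukaemia cells and less RNA per cell cannot be told apart.

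With vehicle, the members had a median level of 136 FPKM ex vivo, and their sum made up 3.48% to 3.65% of all FPKM. Over all 6 ex vivo samples the highest means were those of Atp5b, the catalytic beta subunit of ATP synthase (936.9 FPKM), Cox8a (887 FPKM), Cox6a1 (665 FPKM) and Atp5a1, the alpha subunit (552 FPKM). The 5 members just above the limit of 1 FPKM were Atp5s (2.15 FPKM), Cox6b2 (3.48 FPKM), Cox7c (3.57 FPKM), Ndufaf5 (3.87 FPKM) and Ndufab1 (4.21 FPKM). Below it stood Cox7a1 (0.847 FPKM), Atp5l, Atp5g2 and Ndufa4l2 (each under 0.1 FPKM), and Cox7b2, Cox8b and Cox8c, which were listed at 0 in all 12 libraries. Atp5l and Cox7c encode subunits that every cell with mitochondria uses, so for them a value at or near 0 is given only as listed. Of all 50-base windows in the transcripts of GENCODE release M21, the share that also occurs in another gene was 68.5% for Atp5l, 38.3% for Atp5g2 and 23.0% for Cox7c. It was above 20% for 11 of the 85 kept members, among them Uqcrb (43.2%), Ndufs3 (35.8%), Atp5h (36.9%), Atp5o (28.2%), Ndufa12 (26.2%) and Atp5f1 (22.5%). The levels of these 11 members are uncertain for that reason, since the sources used here do not say how such reads were placed.

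Across the members with a promoter in RefSeq (73 genes, 78 promoters, build GRCm38.p6), a binding motif of NRF1, a transcription factor known for activating nuclear genes of the respiratory chain, was more common than in promoters at large. The motif was GCGCA and GCGC with any 1 base between them, and, searched on both strands of the 250 bases before each transcript start, it stood in 15 of the 78 member promoters (19.2%), in 8.92% of the promoters of all rows kept ex vivo and in 3.74% of all 32851 promoters. The ETS and GABP motif ACTTCCGG stood in 3.85% of member promoters and 6.59% of promoters of kept rows, and the ERR motif TGACCTTG in 3.85% and 0.943%. The long YY1 motif stood in 0% of member promoters and 0.508% of promoters of kept rows, and its core AAGATGGC, which the long form contains, in 1.28% and 2.27%. A match describes these letters only, and no binding was measured. The following stretches are from the 7 members that hold the NRF1 letters and fell under AMD3100 in the paired fit described below. They are shown so that the motif can be seen in its place, 5′ to 3′ on the strand of the gene, with the motif in capitals:
Ndufa5: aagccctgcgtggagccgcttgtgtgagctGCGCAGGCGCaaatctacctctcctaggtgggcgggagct
Sdha: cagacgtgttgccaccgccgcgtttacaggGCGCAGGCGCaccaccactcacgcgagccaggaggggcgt
Sdhd: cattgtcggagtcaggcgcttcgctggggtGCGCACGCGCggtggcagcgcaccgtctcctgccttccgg
Cox6a1: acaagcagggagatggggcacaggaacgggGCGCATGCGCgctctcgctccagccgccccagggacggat
Atp5c1: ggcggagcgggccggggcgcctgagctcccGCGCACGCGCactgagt
Atp5h: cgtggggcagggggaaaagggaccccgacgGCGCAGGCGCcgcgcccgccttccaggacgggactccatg
Atp5k: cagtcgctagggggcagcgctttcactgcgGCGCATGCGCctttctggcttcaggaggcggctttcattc
In GRCm38.p6 these stretches lie on the minus strand at chr6:24527677-24527746 (Ndufa5), chr13:74350299-74350368 (Sdha), chr9:50603889-50603958 (Sdhd), chr5:115349081-115349150 (Cox6a1), chr2:10080433-10080479 (Atp5c1), chr11:115420021-115420090 (Atp5h) and chr5:108434410-108434479 (Atp5k), all upstream of the RefSeq transcript start. The distance from the first base of the motif to that start ran from 17 bases (Atp5c1) to 190 bases (Ndufa5), and Ndufa5 has another annotated start 26 bases after the same motif. In the window, Sdha had 3 and Cox6a1 had 2 positions at which the motif starts. The other members with the letters were Ndufa8, Ndufa11, Ndufaf4, Ndufb4, Ndufs5, Ndufs6 and Atp5g2. Atp5g2 was below the limit of 1 FPKM, and the rest of these did not pass the paired test. The printed stretches were chosen by their fall, and a link between the letters and the fall was not tested.

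AMD3100 against vehicle asks how blocking CXCR4 changes gene expression in cultured leukaemia cells, and subunits of all 5 complexes were lower with the drug. Of the 85 kept members, 76 had a log2 change below 0, against 49.7% of all rows, and the members' median was -0.30 on the log2(FPKM + 1) scale, against 0.00 over all rows. The members' summed FPKM was 2.84% to 2.93% of the total with AMD3100, below the 3.48% to 3.65% with vehicle in each sample. In 48 members (56.5% of those kept) every AMD3100 sample lay below every vehicle sample, where 15.8% of all rows did so, and in 2 (Ndufs3 and Ndufc2) every one lay above, where 13.1% of all rows did so. The median change was -0.29, -0.22 and -0.40 in pairs 1, 2 and 3, and 61 members were lower in all 3 pairs, against 29.4% of all rows.

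Whether single members passed the test depended on the pairing. In the fit without pairs, limma called 13 of all rows (0.127%) at an adjusted p under 0.05 and 0 of the 85 members, whose smallest adjusted p was 0.0544. At an unadjusted p under 0.05, 41 members were lower and 3 higher in that fit, against 12% and 9.56% of all rows. With the replicate number as a block, 9.92% of all rows were called lower and 9.96% higher, while 31 members were called lower and 2 higher. The share of members called lower was 36.5%, the share called higher 2.35%. The counts by complex and by role below stand beside the same 9.92% and 9.96% of all rows. Below, "fell" and "rose" refer to calls of this paired fit, and for the members described in most detail both its adjusted p and that of the fit without pairs are given. The paired calls rest on all 3 pairs: without pair 1 or without pair 2 the number of members called was 0, and without pair 3 it was 10 lower and 0 higher.

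**Figure D1:**
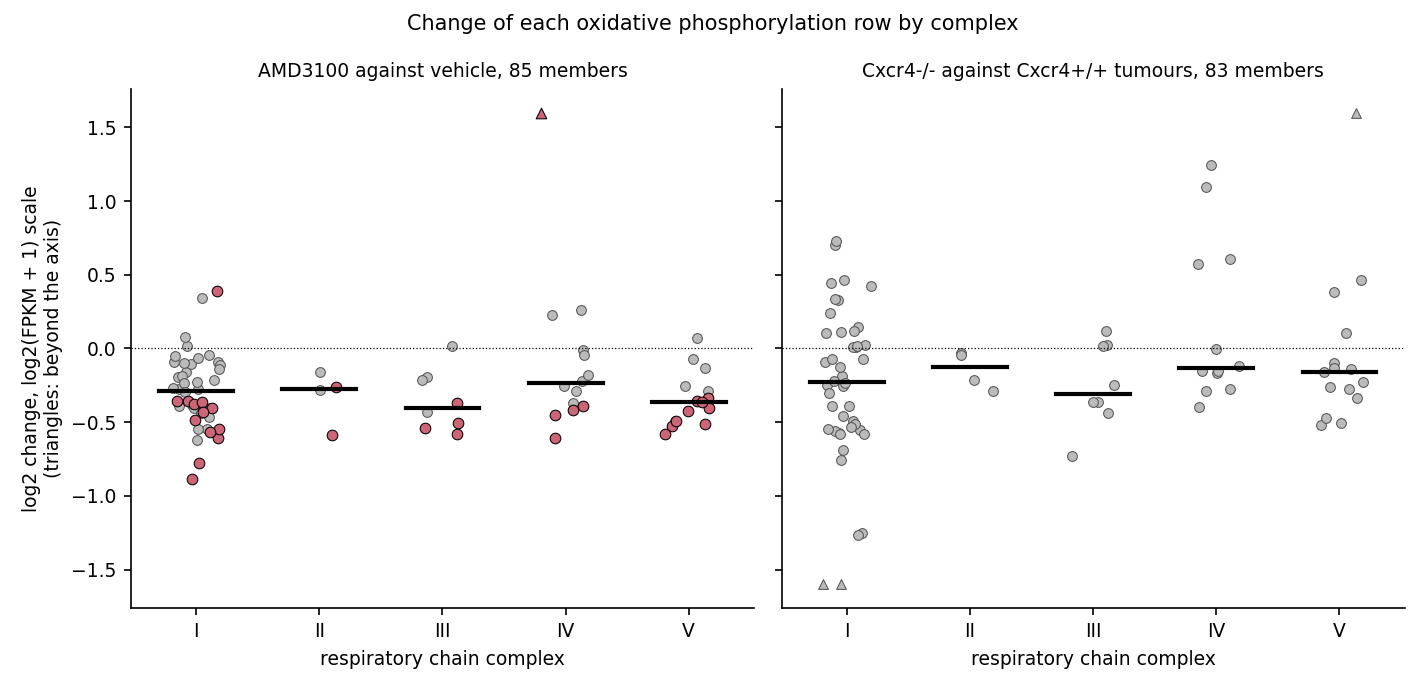
Log2 change of every kept member (points) by respiratory chain complex on the log2(FPKM + 1) scale, for AMD3100 against vehicle (left) and Cxcr4-/- against Cxcr4+/+ tumours (right); black bars are medians, red points passed the paired test ex vivo, and triangles lie beyond the axis (Cox6a2 at 3.35 on the left; Atp5g1 at 2.90, Ndufa5 at -1.68 and Ndufa12 at -2.08 on the right). All 5 medians lie below 0 in both panels, and no tumour point passed the test.

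Complex I, which takes electrons from NADH, had 44 kept members with a median log2 change of -0.29. Of these, 12 fell and 1 rose (Ndufs3), against 9.92% and 9.96% of all rows, and 31 did not pass the paired test. In 22 every AMD3100 sample lay below every vehicle sample, where 15.8% of all rows did so. With the correction for length described below, 7 were called lower and 2 higher, against 7.71% and 8.08% of all rows. Among the 7 core subunits of complex I, the conserved ones that carry the flavin, the iron-sulphur clusters and the quinone site, 3 fell and 1 rose. Ndufs1, the largest iron-sulphur subunit, was at 45.5, 53.1 and 60.9 FPKM with vehicle and at 37.0, 33.2 and 36.02 FPKM with AMD3100. Every AMD3100 value was below every vehicle value, with a log2 change of -0.56 ± 0.11 (SE, n = 3 pairs; adjusted p = 0.0299 paired and 0.0769 without pairs, limma). Ndufs8, another iron-sulphur subunit, fell by 0.43 ± 0.08, from 138.5 ± 9.24 to 102.5 ± 6.06 FPKM (SD, n = 3).

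Not all core subunits moved alike. Ndufs3, a subunit of the peripheral arm, was at 29.7, 24.4 and 27.7 FPKM with vehicle and at 35.6, 36.8 and 35.5 FPKM with AMD3100. The groups did not overlap and the rise was 0.39 ± 0.09 (adjusted p = 0.0403 paired, 0.0903 without pairs). Ndufv1, the flavin subunit that oxidises NADH, was at 94.6 ± 11.1 and 81.2 ± 1.22 FPKM (log2 change -0.21, paired adjusted p = 0.149), and its groups overlapped. Ndufs7 differed by -0.05 ± 0.12 and Ndufv2 by -0.44 ± 0.12, and neither passed (paired adjusted p = 0.778 and 0.0659).

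Among the 29 accessory subunits of complex I, which surround the core, 7 fell and 0 rose. Ndufa5 was at 77.5, 105 and 101 FPKM with vehicle and at 52.1, 53.3 and 57.7 FPKM with AMD3100. Every treated sample lay below every vehicle sample, and the change was -0.78 ± 0.10 (adjusted p = 0.0197 paired, 0.0614 without pairs). Ndufb8, a membrane-arm subunit often used as a marker of assembled complex I, was at 220, 266 and 275 FPKM with vehicle and 156, 186 and 178 FPKM with AMD3100 (-0.55 ± 0.07, adjusted p = 0.0197 paired, 0.078 without pairs). Ndufa12, Ndufb11, Ndufa3, Ndufa9 and Ndufc1 made up the rest of the accessory subunits that fell, by 0.35 to 0.61. Ndufc2 ran the other way, at 230, 214 and 205 FPKM with vehicle and 248.5, 287 and 289 FPKM with AMD3100, all above the vehicle samples, without passing the paired test (0.34 ± 0.10, adjusted p = 0.0653). Ndufa13 and Ndufb6 differed by 0.02 and 0.08.

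The largest fall of any member was that of Ndufa4, which was long listed with complex I and has since been placed in complex IV. It was at 652.6, 553 and 746 FPKM with vehicle and at 365, 340.3 and 339.9 FPKM with AMD3100, a drop of the mean by 46.5%. The 2 groups were far apart, and the log2 change was -0.89 ± 0.11 (adjusted p = 0.0197 paired, 0.0544 without pairs). The 7 complex I assembly factors that share the Nduf prefix (Ndufaf1 to Ndufaf7) are not part of the finished enzyme and had group means of 3.56 to 59.2 FPKM. All 7 had log2 changes below 0, with a median of -0.20, and Ndufaf2 fell (59.2 ± 8.82 to 45.2 ± 1.28 FPKM, -0.37 ± 0.09, adjusted p = 0.0452 paired, 0.155 without pairs).

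**Figure D2:**
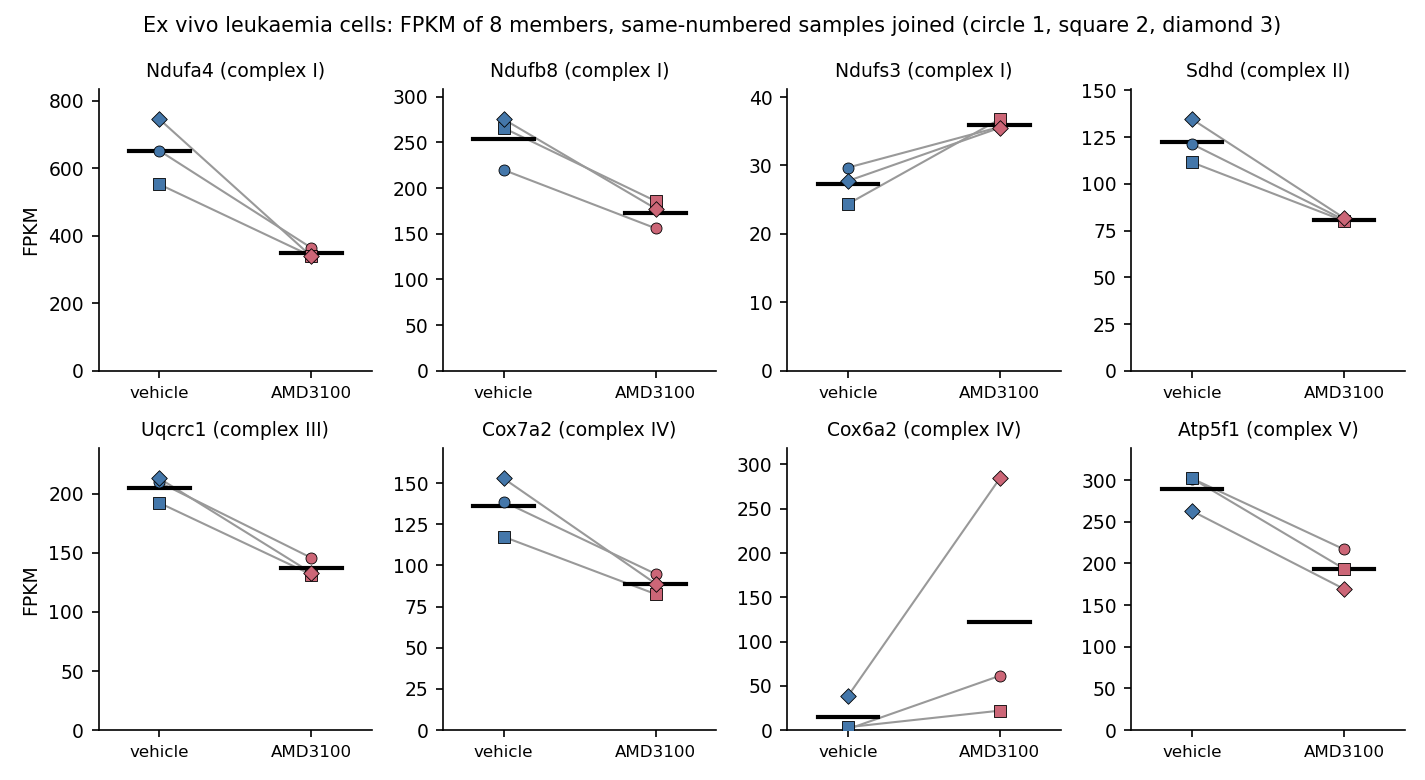
FPKM of 8 members in each ex vivo sample, with same-numbered vehicle (blue) and AMD3100 (red) samples joined and black bars at the group means. Ndufa4, Ndufb8, Sdhd, Uqcrc1, Cox7a2 and Atp5f1 drop in all 3 pairs with no overlap, Ndufs3 is higher in all 3, and Cox6a2 is higher in all 3 with a wide spread (1.22 to 38.4 FPKM with vehicle, 22.03 to 284 FPKM with AMD3100).

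Complex II, which oxidises succinate and links the chain to the citric acid cycle, had a median log2 change of -0.27 over its 4 subunits. Of these, 2 fell, against 9.92% of all rows, and 1 was called lower with the correction for length, against 7.71%. Sdhd, a membrane anchor, was at 121, 111.5 and 135 FPKM with vehicle and at 80.8, 80.2 and 81.8 FPKM with AMD3100. The treated samples were within 2 FPKM of each other and all below the vehicle samples (-0.59 ± 0.07, adjusted p = 0.0197 paired, 0.0544 without pairs). Sdha, the flavoprotein that holds the succinate site, fell from 130 ± 6.94 to 108 ± 1.74 FPKM (-0.26 ± 0.06, adjusted p = 0.0467 paired, 0.115 without pairs). The iron-sulphur subunit Sdhb went from 194 ± 37.9 to 158 ± 20.1 FPKM with overlapping groups (-0.28 ± 0.07, paired adjusted p = 0.0525), and the other anchor, Sdhc, from 120 ± 6.08 to 107 ± 3.05 FPKM (-0.16 ± 0.07, paired adjusted p = 0.174).

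Complex III, which passes electrons from ubiquinol to cytochrome c, had a median of -0.40 over 8 members, the lowest of the 5 medians. Of these, 4 fell, against 9.92% of all rows, and 7 had no overlap between the groups, where 15.8% of all rows separated downwards. With the correction for length 4 were called lower, against 7.71% of all rows. Uqcrc1, a core protein on the matrix side, was at 210, 192 and 213 FPKM with vehicle and at 146, 132 and 133 FPKM with AMD3100 (-0.58 ± 0.07, adjusted p = 0.0197 paired, 0.0544 without pairs). Uqcrfs1, the Rieske iron-sulphur protein, was lower in every AMD3100 sample than in any vehicle sample, at 125 ± 4.82 and then 96.2 ± 5.91 FPKM (-0.37 ± 0.06, adjusted p = 0.0256 paired, 0.075 without pairs). The small subunits Uqcr10 (-0.54 ± 0.09) and Uqcr11 (-0.50 ± 0.08) also fell. Uqcrc2, Uqcrh and Uqcrq were lower by 0.19 to 0.43 without passing, and Uqcrb was at 61.8 ± 3.70 and 63.2 ± 10.8 FPKM.

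Complex IV, which reduces oxygen, had a median of -0.24 over 14 members, and 5 had no overlap between groups, where 15.8% of all rows separated downwards. That was the median closest to 0 of the 5 complexes, but it depended on the rows counted. The 14 include Cox7a2l and 3 tissue or condition forms, while Ndufa4 was counted with complex I. Over the 10 common subunits alone the median was -0.31, further from 0 than the -0.27 of complex II, and these held all 5 members without overlap. Of the 14 members, 4 fell and 1 rose, against 9.92% and 9.96% of all rows, and 9 did not pass. With the correction for length described below, the median was -0.13. In that fit 1 was called lower (Cox7a2) and 2 higher (Cox6a2 and Cox7a2l), against 7.71% and 8.08% of all rows. Cox7a2 was at 139, 117 and 153 FPKM with vehicle and at 94.9, 82.6 and 89.0 FPKM with AMD3100 (-0.61 ± 0.08, adjusted p = 0.0197 paired, 0.0705 without pairs). Cox6a1 fell from 770 ± 69.2 to 561 ± 3.40 FPKM (-0.45 ± 0.09) and Cox7b from 104 ± 7.47 to 77.6 ± 5.67 FPKM (-0.42 ± 0.10). Cox4i1, a regulatory subunit that binds ATP, was at 699, 610.3 and 539 FPKM and then 539.9, 489 and 389 FPKM. It was lower within every pair though the groups overlapped, and the call was made only with pairs (-0.39 ± 0.08, adjusted p = 0.0311 paired, 0.24 without pairs). Cox5a, at 270 ± 38.7 and 261 ± 20.6 FPKM, and Cox5b, at 124 ± 17.3 and 103 ± 4.31 FPKM, face the matrix and did not pass (-0.04 ± 0.07 and -0.25 ± 0.08).

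Some complex IV subunits exist as pairs of a common and a tissue-restricted form, and these did not all move together. Cox6a2, the form typical of heart and skeletal muscle, was at 1.22, 3.37 and 38.4 FPKM with vehicle and at 61.4, 22.03 and 284 FPKM with AMD3100. Each AMD3100 sample was above its own pair and the groups overlapped, and the log2 change was 3.35 ± 0.47 (adjusted p = 0.0199 paired, 0.225 without pairs). Its common partner Cox6a1 fell, as given above. Cox4i2, known from lung and from cells short of oxygen, was at 10.4, 10.9 and 0 FPKM with vehicle and at 10.3, 8.52 and 0.22 FPKM with AMD3100 (paired adjusted p = 0.958). The summed stromal markers of the same samples were 152, 184 and 10.9 FPKM and then 168, 199.5 and 21.4 FPKM, so Cox4i2 and the stromal markers were both low in pair 3, and whether the OP9 cells supply this RNA was not tested.

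Cox6b2, the form known from testis, was likewise lowest in pair 3 (3.25, 5.97 and 0.53 FPKM, then 1.29, 9.86 and 0 FPKM). Its common partner Cox6b1 was at 408 ± 43.5 and 315 ± 25.1 FPKM with no overlap (-0.37 ± 0.12, paired adjusted p = 0.0832). Cox7a1, the muscle form beside Cox7a2, was at 2.42 FPKM or less in every sample. Cox7a2l, a related protein described as a supercomplex factor of complexes III and IV, was at 124 ± 19.5 and 144 ± 8.68 FPKM (0.22 ± 0.08, paired adjusted p = 0.107), higher in all 3 pairs. Only its RNA was measured. Cox8a was at 944 ± 145 and 830 ± 110 FPKM, and its tissue forms Cox8b and Cox8c were listed at 0.

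In complex V, ATP synthase, 9 of 15 members fell, against 9.92% of all rows, with a median of -0.37. In 11 the groups did not overlap, where 15.8% of all rows separated downwards. With the correction for length 3 were called lower, against 7.71% of all rows. Among the 5 subunits of the catalytic F1 head, 3 fell. Atp5a1 was at 655, 604 and 697 FPKM with vehicle and at 468, 453 and 432.5 FPKM with AMD3100 (-0.53 ± 0.09, adjusted p = 0.024 paired, 0.0614 without pairs). Atp5b was at 1061, 1047 and 1116 FPKM and then 788, 819.5 and 789.7 FPKM (-0.43 ± 0.08, adjusted p = 0.0308 paired, 0.0705 without pairs). Atp5c1, the rotating shaft, fell by 0.34 ± 0.07 (317 ± 17.6 to 250.1 ± 4.72 FPKM, adjusted p = 0.0331 paired, 0.0824 without pairs), while Atp5d (-0.26) and Atp5e (-0.07) did not pass.

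The 6 kept subunits of the stalk and membrane part were each lower in every AMD3100 sample than in any vehicle sample, and 5 of them fell. Atp5f1, the b subunit of the peripheral stalk, was at 301.8, 301.9 and 263 FPKM with vehicle and at 217, 194 and 169 FPKM with AMD3100 (-0.58 ± 0.07, adjusted p = 0.0197 paired, 0.0711 without pairs). Atp5h, Atp5o, Atp5k and Atp5j2 fell by 0.36 to 0.52, and Atp5j was lower by 0.29 (paired adjusted p = 0.08). The c subunit, which forms the rotating ring, is encoded by 3 genes for 1 mature protein. Atp5g3 made up nearly all of its listed RNA and fell from 589 ± 60.2 to 444 ± 26.1 FPKM (-0.40 ± 0.09, adjusted p = 0.0416 paired, 0.11 without pairs). Atp5g2, with 38.3% of its windows shared with another gene, had a mean of 0.0493 FPKM, which is given only as listed. Atp5g1 was at 21.6, 5.42 and 10.8 FPKM and then 16.1, 8.44 and 11.2 FPKM, with no direction in common. Atp5s and Atp5sl, which share the prefix without being subunits, had group means of 1.67 to 7.32 FPKM and did not pass.

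**Figure D3:**
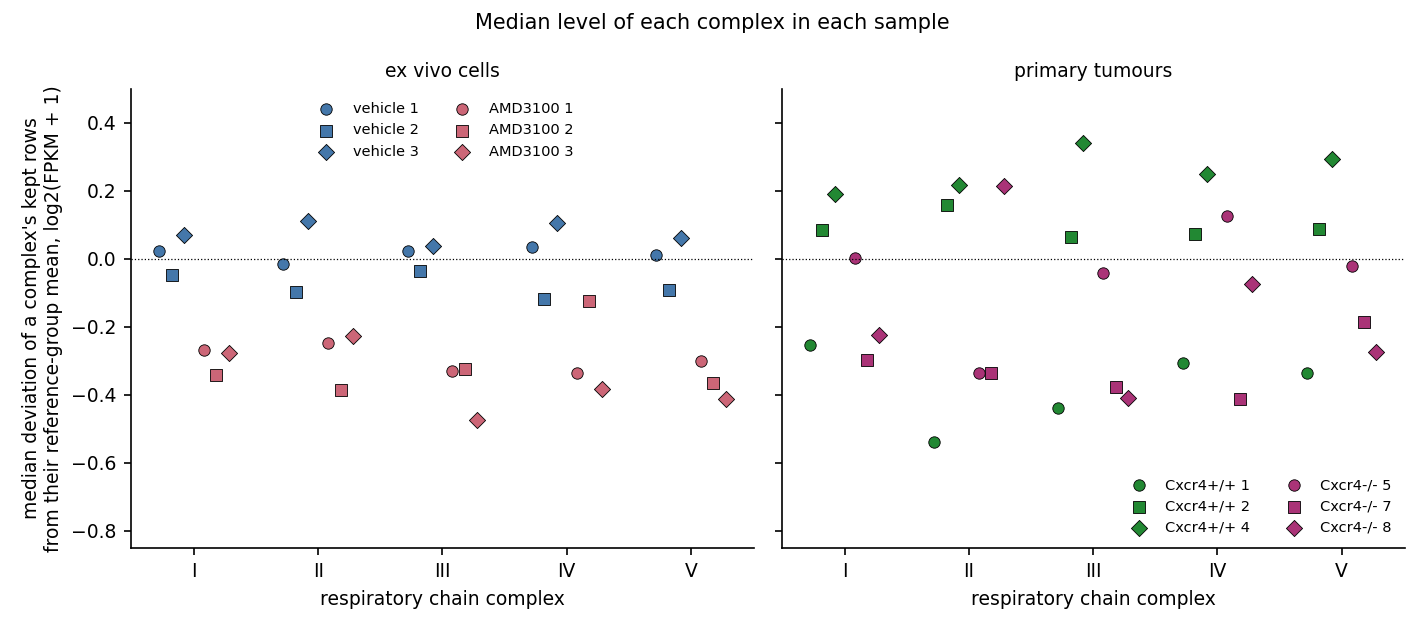
Median deviation of each complex's kept members from their mean in the reference group (vehicle or Cxcr4+/+), one point per sample, on the log2(FPKM + 1) scale. Ex vivo, the AMD3100 samples lie below the vehicle samples for every complex, narrowly so for complex IV (AMD3100 2 at -0.12, vehicle 2 at -0.12). In the tumours, Cxcr4+/+ tumour 1 lies among the Cxcr4-/- tumours for complexes I and IV and below them for complexes II, III and V.

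Other features of the ex vivo libraries moved with the treatment. Short transcripts were lower and long ones higher: rows under 1000 bases had a median change of -0.09, rows of 4000 bases or more 0.16, and Spearman's rho of change with length was 0.25 across 10079 rows, which are not independent replicates. Malat1, a long nuclear RNA, rose from 178, 214 and 334 FPKM to 527, 580 and 920.5 FPKM. In all, 4 of 4 kept nuclear RNAs rose, against 9.96% of all rows, and 3 were called higher with a correction for length, against 8.08%. The members are short, with a median transcript length of 718.5 bases against 2064 bases over all rows. Among rows under 1000 bases, 35% of the 60 members and 15.7% of the 2037 other rows fell. Between 1000 and 2000 bases these shares were 42.9% of 21 members and 14.6% of 2738 other rows. With a correction for length the members' median was -0.21, and 16 members were called lower and 4 higher (Ndufs3, Ndufc2, Cox6a2 and Cox7a2l) in the paired fit, against 7.71% and 8.08% of all rows. The members still called lower were 7 in complex I (Ndufa4, Ndufa5, Ndufa9, Ndufa12, Ndufb8, Ndufb11 and Ndufs1), 1 in complex II (Sdhd), 4 in complex III (Uqcrc1, Uqcrfs1, Uqcr10 and Uqcr11), 1 in complex IV (Cox7a2) and 3 in complex V (Atp5a1, Atp5b and Atp5f1). The rest of the 31 lost the call, at adjusted p from 0.0545 (Atp5h) to 0.113 (Ndufaf2), among them Cox4i1, Cox6a1, Cox7b, Sdha, Ndufs8, Atp5c1, Atp5g3, Atp5k, Atp5o and Atp5j2.

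Genes that work with the chain were taken from lists outside the symbol rule, except that Atp5sl, counted with complex V above, recurs among the complex I factors. Several of the listed genes moved in the same direction. The citric acid cycle and pyruvate dehydrogenase, which supply NADH and succinate, had 8 of 20 members lower and 0 higher, against 9.92% and 9.96% of all rows, with a median of -0.28. Fh1, fumarate hydratase, was at 122, 107 and 104 FPKM with vehicle and at 77.0, 64.6 and 50.8 FPKM with AMD3100 (-0.80 ± 0.09, adjusted p = 0.0197 paired, 0.0708 without pairs). Dlst and Dld, components of the 2-oxoacid dehydrogenases, fell by 0.53 and 0.49. Of 6 electron carriers, 2 fell: Etfb, which passes electrons from fatty acid oxidation to ubiquinone (-0.45 ± 0.07), and Cyc1, the cytochrome c1 of complex III (-0.32 ± 0.06).

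Assembly factors were listed for each complex apart, and the counts stand beside the 9.92% of all rows called lower; differences between the lists were not tested. Outside the Nduf rows, 2 of 9 factors for complex I fell (Tmem126a by 0.57, Foxred1 by 0.38), as did 1 of 3 for complex II (Sdhaf1 by 0.63) and 1 of 5 for complex III (Mnf1 by 0.64). For complex IV, 2 of 20 fell (Coa3 by 0.54 and the copper chaperone Cox17 by 0.40), 1 rose (Cmc1, 0.48 ± 0.10) and the list's median was 0.03. Among 5 factors and regulators of complex V, 1 fell: Atpif1, which inhibits ATP hydrolysis by the enzyme, at 430.5, 406 and 414 FPKM with vehicle and 242, 214 and 176 FPKM with AMD3100 (-0.99 ± 0.10, adjusted p = 0.0191 paired, 0.0544 without pairs). Its values did not overlap, and the drop was larger than that of any member.

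Of 16 transcriptional and mitochondrial DNA regulators, 1 fell and 0 rose, where 9.92% of all rows fell and 9.96% rose. It was Ssbp1, which coats single-stranded mitochondrial DNA during replication, at 34.5, 31.4 and 33.8 FPKM and then 21.4, 16.0 and 12.7 FPKM (-0.98 ± 0.14, adjusted p = 0.02 paired, 0.068 without pairs). Gabpa, which binds the ETS motif above, was at 37.6 ± 3.70 and 31.3 ± 2.77 FPKM (paired adjusted p = 0.0533). Among 11 carriers of the mitochondrial membranes, 3 fell and 0 rose: the citrate carrier Slc25a1 (-0.42 ± 0.07) and the ADP/ATP translocases Slc25a5 (-0.51 ± 0.10) and Slc25a4 (-0.33 ± 0.07). All these list counts are without the correction for length. With it, 4 genes of the citric acid cycle list, 1 electron carrier, 1 membrane carrier and 2 regulators were called lower, against 7.71% of all rows. For the factors of complexes I to V, 1, 2, 1, 0 and 1 were called lower. Called higher were 1 complex IV factor, 1 regulator and 1 membrane carrier, against 8.08% of all rows.

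Cxcr4-/- against Cxcr4+/+ asks the same question of the receptor's loss in primary tumours, and here no member passed the test. limma called 4 of all rows (0.0372%) and 0 of the 83 kept members, whose smallest adjusted p was 0.986. At an unadjusted p under 0.05, 2 members were higher and 0 lower, against 2.26% and 2.02% of all rows. In 5 members (6.02%) every Cxcr4-/- tumour lay below every Cxcr4+/+ tumour, where 5.2% of all rows did so, and in 2 (2.41%) every one lay above, where 4.01% did so. Both shares lie near those of all rows. The members' median was -0.17 on the log2 scale, against -0.03 over all rows, and 56 of 83 were below 0, against 52.3% of all rows.

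The medians by complex were -0.23 for complex I, -0.13 for complex II, -0.31 for complex III, -0.13 for complex IV and -0.16 for complex V. With 1 tumour left out in turn, the median of complex II ran from -0.40 to 0.04 and that of complex IV from -0.22 to 0.11. The SE of a single member was large beside these values. For Atp5b, at 394.5, 663 and 782.5 FPKM in Cxcr4+/+ and 559, 388 and 321 FPKM in Cxcr4-/-, the change was -0.52 ± 0.40. Atp5a1 differed by -0.33 ± 0.28, Sdha by -0.03 ± 0.27, Uqcrc1 by -0.37 ± 0.33 and Cox4i1 by 0.00 ± 0.35.

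The 5 members whose tumours separated downwards all belong to complex I, which holds 44 of the 83 kept members. Ndufc2 was at 116, 134 and 149 FPKM in Cxcr4+/+ and at 109, 63.3 and 79.0 FPKM in Cxcr4-/- (-0.69 ± 0.30). Ndufs8 was at 57.3, 71.4 and 69.7 FPKM and then 55.4, 33.1 and 45.2 FPKM (-0.58 ± 0.29). Ndufs4, at 24.2, 17.2 and 20.3 FPKM and then 14.3, 15.7 and 10.4 FPKM (-0.58 ± 0.31), Ndufa8 (-0.25 ± 0.24) and Ndufa12 made up the rest, all at an adjusted p of 0.986. Ndufa12 was at 25.2, 31.0 and 40.4 FPKM and then 21.9, 19.3 and 0 FPKM. The 0 stood in Cxcr4-/- tumour 8, where Ndufs5, Ndufab1, Ndufaf6, Cox7c and Atp5s were also listed at 0 and Ndufa5 at 0.853 FPKM. That tumour had 13231 of all rows at 0, the most of any tumour library (10423 to 11433 in the others). Of the 92 members, 15 were listed at 0 there, 13 in Cxcr4+/+ tumour 1 and 8 to 9 in each of the other tumours.

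The 2 members that separated upwards were Cox6c and Atp5g1. Cox6c, a small complex IV subunit, was at 123, 109 and 121 FPKM in Cxcr4+/+ and at 194, 152 and 195 FPKM in Cxcr4-/- (0.60 ± 0.26, adjusted p = 0.986). Atp5g1 was listed at 0, 15.1 and 4.76 FPKM and then at 29.95, 23.1 and 50.5 FPKM (2.90 ± 0.95, adjusted p = 0.986, and 1.81 to 3.81 with 1 tumour left out in turn). Ex vivo, Cox6c had not passed (-0.22, paired adjusted p = 0.237) and Atp5g1 had differed by 0.07. Cox6b2 varied widely within each genotype, at 0, 74.2 and 181 FPKM in Cxcr4+/+ and at 109, 6.45 and 162 FPKM in Cxcr4-/-.

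The tumours' own order cut across genotype. The members' median deviation from the Cxcr4+/+ mean was -0.32, 0.09 and 0.21 in Cxcr4+/+ tumours 1, 2 and 4 and 0.00, -0.30 and -0.19 in Cxcr4-/- tumours 5, 7 and 8. T cell markers of the same tumours summed to 5736, 1563 and 1934 FPKM and to 2121, 4581 and 3556 FPKM, so the 3 tumours with the highest T cell sums (Cxcr4+/+ 1, Cxcr4-/- 7 and 8) had the 3 lowest medians. Haemoglobin took 1.29%, 5.48% and 23.0% of summed FPKM in Cxcr4+/+ and 20.4%, 2.76% and 6.55% in Cxcr4-/-. Since the tumours fall into 2 sets by the T cell sums, no correlation is given, and the part of the cell mixture in the members' levels was not tested.

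**Figure D4:**
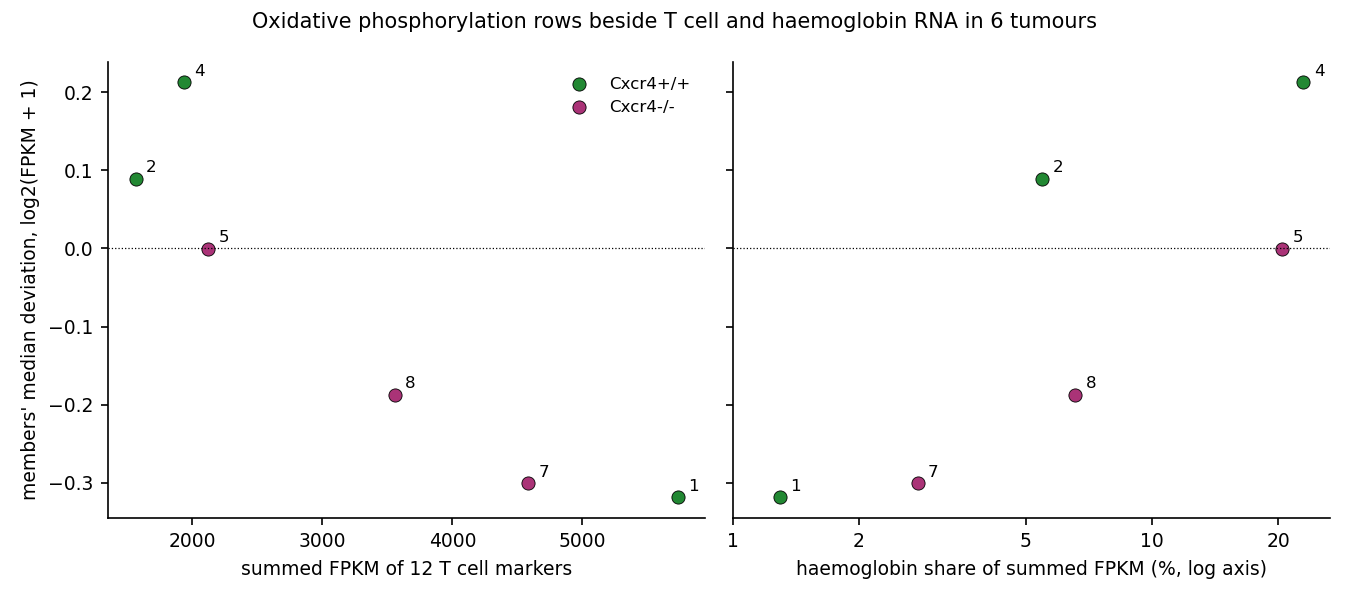
Members' median deviation in each tumour (log2(FPKM + 1), relative to the Cxcr4+/+ mean) beside the summed FPKM of 12 T cell markers (left) and the haemoglobin share of summed FPKM in percent on a log axis (right); numbers are tumour numbers. Tumours 1, 7 and 8 have T cell sums of 3556 FPKM or more and medians of -0.19 or less, and tumours 2, 4 and 5 have sums of 2121 FPKM or less and medians of 0.00 or more.

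The 2 comparisons share no samples. Of the 83 members kept in both tables, 52 (62.7%) had a log2 change below 0 in both, where 31.5% of the 9646 rows kept in both did so. Another 4 were above 0 in both, while 23 were lower only ex vivo and 4 lower only in the tumours. Most members were below 0 in each comparison taken alone (76 of 85 ex vivo, 56 of 83 in the tumours). A large share below 0 in both follows from those counts, so it does not show that the comparisons agree gene by gene. By complex, 25 of 44, 4 of 4, 5 of 8, 7 of 12 and 11 of 15 members of complexes I to V were below 0 in both. Across the 83 members Pearson's r was 0.32 and Spearman's rho 0.25, and across all rows 0.20 and 0.26, so the members' changes followed each other about as weakly as those of all rows. Ndufs3 and Ndufc2, which were higher with AMD3100, were lower in the Cxcr4-/- tumours (-0.53 ± 0.33 and -0.69 ± 0.30), and Ndufa4, with the largest fall ex vivo, differed by -0.19 ± 0.30.

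**Figure D5:**
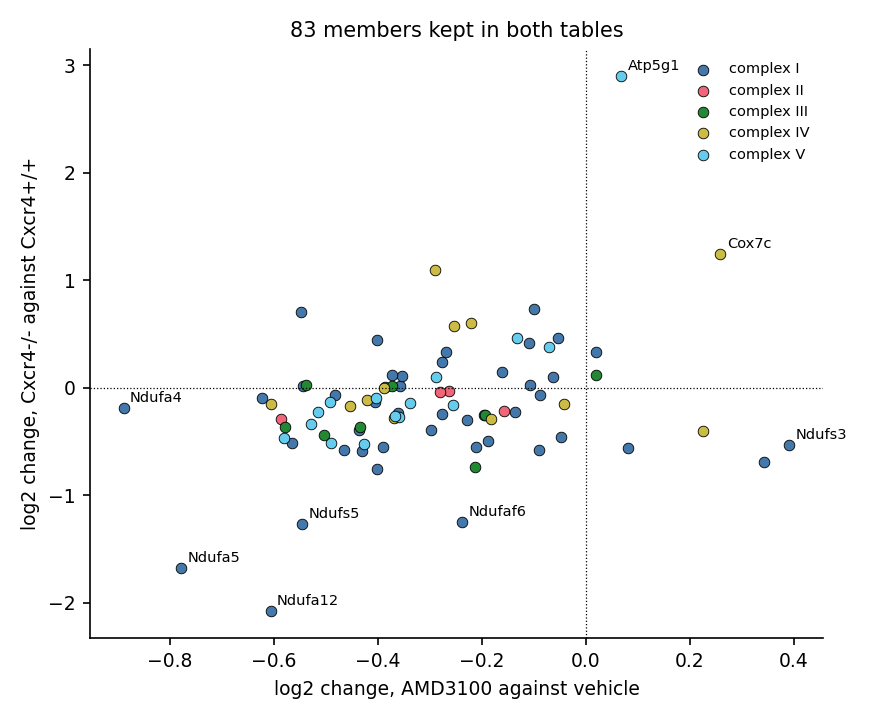
Log2 change with AMD3100 (horizontal) and in Cxcr4-/- tumours (vertical) for the 83 members kept in both tables, coloured by complex, both on the log2(FPKM + 1) scale. The lower left field holds 52 of the 83 points, and Ndufa12, Ndufa5, Ndufs5 and Ndufaf6 lie lowest there.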

How the data were processed

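Per the labels' protocols, poly-A RNA of 12 samples went into stranded dUTP libraries that were read for 50 bases from one end. The authors deposited FPKM values in 2 tables of 6 samples; per the submitters' processing notes, CASAVA, TopHat and build mm9 were used, and no source used here names the program behind the FPKM values or any read totals, so depth per sample is unknown and no counting interval can be given. Every column matched a sample by name.

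Each table was fitted whole with limma 3.58.1 in R 4.3.3 on log2(FPKM + 1), which understates changes of low genes, over rows with a mean of at least 1 FPKM (empirical Bayes with an intensity trend, two-sided tests, Benjamini-Hochberg over all kept rows, calls at an adjusted p under 0.05). An exact permutation test of 3 against 3 samples cannot give a p under 0.1. The scripts were tested on simulated data. Same-numbered ex vivo samples deviated together from their group means (correlations 0.467, 0.579 and 0.619 over 10245 rows, against -0.473 to 0.0455 for different numbers). The replicate number was therefore also fitted as a block. Over the 85 members alone the correlations were 0.269, 0.705 and 0.748, against -0.74 to 0.495 for different numbers. Vehicle 1 thus went with AMD3100 2 (0.495) more than with AMD3100 1, so pair 1 is weakly backed for these rows. The pairing comes from the shared numbers in the labels and from the correlations over all rows, since the labels do not say what a number marks. The tumours share no numbers.

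Transcript lengths are medians over a gene's transcripts in GENCODE release M21 (protein-coding ones where it has any), found for 98.4% and 98.3% of kept rows and used only for length and shared windows; promoters are RefSeq's. Named were catalytic and electron-transfer subunits, the 3 members per complex with the smallest p and the largest rise and fall, the paralogue sets, assembly factors, members next to the 1 FPKM limit and up to 3 genes per list. The result for 1 gene that this rule names is not reported here. Members and lists were chosen with earlier results of these data known. Alternatives were pseudocounts of 0.1 and 0.5, minimum means of 0.1 and 5 FPKM or none, median-of-ratios, TMM and quantile scaling, length correction, limma without a trend, the block and leaving out libraries or pairs.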

Additional observations from a re-analysis of the deposited data

How the results depend on the processing

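The members' median change with AMD3100 stayed below 0 in all settings run. It was -0.223 with quantile normalisation and -0.214 with length correction, the same with and without the replicate block, and ran from -0.372 to -0.292 with a library and -0.352 to -0.267 with a pair left out. Quantile normalisation gave -0.233, -0.157, -0.264, -0.12 and -0.219 for complexes I to V, and length correction -0.182, -0.196, -0.297, -0.13 and -0.259. With libraries and then pairs left out, the medians ran from -0.330 to -0.243 and -0.334 to -0.268 (I), -0.357 to -0.180 and -0.300 to -0.225 (II), -0.443 to -0.326 and -0.431 to -0.299 (III), -0.369 to -0.189 and -0.351 to -0.118 (IV), and -0.425 to -0.323 and -0.422 to -0.303 (V).

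Calls moved more than medians. Without the block, members called lower numbered 4 at a minimum of 5 FPKM and 3 with median-of-ratios scaling, against 0. All rows called, 13 in the fit reported, numbered 59 with no filter, 188 at 5 FPKM, 89 with median-of-ratios scaling, 3 with quantile normalisation, 1 with length correction, 1 without a trend and 3 to 5 with a library left out. With the replicate block, the rows called, members lower and members higher were 2036, 31 and 2. With the block they were 1591, 16 and 4 under length correction, 2029, 29 and 2 under median-of-ratios scaling, 2005, 30 and 2 under TMM, and 1914, 16 and 4 under quantile normalisation. Without pairs 1, 2 and 3 in turn, the block called 4, 6 and 559 rows and 0, 0 and 10 members lower. Ex vivo, Cox5a changed sign with quantile normalisation (0.114) and length correction (0.0633), ran from -0.123 to 0.07 with a library and from -0.0775 to 0.015 with a pair left out. Uqcrb ran from -0.101 to 0.142 and from -0.0624 to 0.15 (-0.0289 without pair 3), and Atp5g1 from -0.381 to 0.526 and from -0.175 to 0.302.

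In the tumours, all rows called numbered 0 with no filter and 0 to 2 with a tumour left out, against 4, and members called stayed at 0. With a tumour left out, the members' median ran from -0.360 to -0.108, and those of complexes I to V from -0.396 to -0.124, -0.397 to 0.0415, -0.405 to -0.155, -0.222 to 0.112 and -0.362 to -0.0323. Signs changed for Cox4i1 (0.0233 with length correction, -0.254 to 0.18 with a tumour left out), Sdhb (0.00442 with quantile normalisation, -0.388 to 0.196), Uqcrfs1 (-0.0462 with TMM, -0.36 to 0.285), Sdha (-0.223 to 0.109), Sdhd (-0.657 to 0.0609), Cox5a (-0.446 to 0.0441) and Uqcrb (-0.00524 to 0.31). The causes of these differences were not tested.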

Other observations

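Supply genes of the chain had values in the tumours beside those of the subunits. Of 19 kept genes of the citric acid cycle and pyruvate dehydrogenase, 18 had a log2 change below 0 in Cxcr4-/- tumours, with a median of -0.35 against -0.03 over all rows, and none passed the test (smallest adjusted p 0.986, limma; 1 was lower at an unadjusted p under 0.05). Fh1, the member of that list with the smallest p in the paired fit ex vivo (Dld had the smallest without pairs), was at 34.8, 39.9 and 44.3 FPKM in Cxcr4+/+ and at 20.8, 18.1 and 11.95 FPKM in Cxcr4-/-, with no overlap (-1.21 ± 0.31). The complex III assembly factors had 5 of 5 below 0 (median -0.70), where 52.3% of all rows were. Their median level was 4.22 FPKM in Cxcr4+/+, and their smallest adjusted p was 0.986 (limma). For the listed factors of complexes I, II, IV and V, 6 of 9, 1 of 3, 9 of 20 and 2 of 5 were below 0. The medians of these 4 lists were -0.11, 0.35, 0.08 and 0.12.

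Among the 13 kept members whose promoter holds the NRF1 letters, 7 fell ex vivo and the median log2 change was -0.45. Among the 55 kept members with a promoter and without the letters, 19 fell and the median was -0.29. The sets share their samples and the difference between them was not tested.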
